A study of Mus musculus with 8 samples.

Results

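The genes described here are 10 that hold back or carry the mTORC1 signal to translation: the sestrin genes Sesn1, Sesn2 and Sesn3, Ddit4 (which encodes REDD1), the 4E-BP genes Eif4ebp1 and Eif4ebp2, the TSC complex genes Tsc1 and Tsc2, and the mTORC1 core genes Mtor and Rptor. They were chosen by symbol, for what their products do, and with earlier results of these data known. All 10 were found among the 24413 symbols of each count file. All 10 passed the filter on low counts and are among the 9904 genes tested.

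Transcripts were counted in plasmablasts, which are B cells on the way to antibody secretion that still divide. They were grown from splenic B220+ B cells of C57BL/6J mice by 4 days of stimulation with the bacterial product lipopolysaccharide (LPS, 25 µg/ml) and sorted as CD22-CD138+ cells. The 4 knockout libraries came from Jagn1fl/fl Mb1Cre+ mice, in which Mb1-Cre, a Cre driven by the Cd79a locus, removes Jagn1 in B-lineage cells. The 4 control libraries came from Jagn1fl/fl mice, for which no Cre is listed, so that all mice carried the floxed alleles and the effect of Cre cannot be told apart from that of Jagn1 loss. The product of Jagn1 sits in the membrane of the endoplasmic reticulum (ER), and the comparison asks what its loss changes in these cells. The labels state 4 mice per genotype without saying which library came from which mouse.

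mTORC1 is a kinase complex at the lysosome, built on the kinase mTOR and the scaffold protein Raptor, that promotes protein synthesis when amino acids and growth factors are present. The TSC complex switches off Rheb, the small GTPase that activates mTORC1, and REDD1 is a stress-induced protein that acts through TSC. Sestrins restrain mTORC1 by binding the GATOR2 complex, and Sestrin2 does so as a leucine sensor. The 4E-BP proteins bind the cap-binding factor eIF4E and block initiation until mTORC1 phosphorylates them. Ddit4, Sesn2 and Eif4ebp1 are known targets of ATF4, the transcription factor of the integrated stress response, while Sesn1 is best known as a target of p53 and of the FoxO factors. Antibody-secreting cells depend on this balance, since they make large amounts of secreted protein.

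Library totals ran from 5882912 to 10066661 counts. Levels are in CPM, counts scaled per normalized library total. The limit that 0 counts leave, taken as 3 counts, was 0.292 to 0.483 CPM by library; such floors and intervals on counts cover counting error only. Jagn1 gave 1 to 2 counts per library in the knockout and 16 to 99 in the control. Control replicates 1 and 4 stood apart, deviating from the mean of their group by 0.594 and 0.581 (root mean square over genes, log2 CPM), while the other 6 libraries deviated by 0.324 to 0.432. For some of the values that rest on either, a fit without it is therefore given. Values given without such a fit may also depend on these 2 libraries. In these bulk samples fewer cells of a type and less RNA per cell cannot be told apart.

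Ddit4 and Eif4ebp1 were higher in knockout plasmablasts, and no gene of the TSC complex or the mTORC1 core was called. In edgeR's quasi-likelihood test, with Benjamini-Hochberg adjustment over all genes tested and a threshold of 0.05, 2 of the 10 genes were higher in the knockout and 0 were lower. Over all tested genes 2.54% were called higher and 3.19% lower, or 5.74% in either direction. DESeq2 called 3 of the 10 higher, where it called 3.73% of all genes higher. Limma-voom, run with sample weights here and below, called 2, where it called 4.85%. Neither called any of the 10 lower, where DESeq2 called 4.91% and limma-voom 5.96% of all genes lower. An unadjusted p under 0.05 was reached by 4 of the 10 genes, of which Sesn1 had a negative log2 fold change, and by 18% of all tested genes. The median log2 fold change was 0.40 over the 10 genes and -0.01 over all tested genes. Every knockout library lay above every control library for Ddit4, Eif4ebp1 and Rptor, 3 of the 10 genes, and below it for 0. Over all tested genes the knockout libraries lay wholly above for 6.45% and wholly below for 6.64%, or 13.1% in either direction. Because the 10 genes were chosen with earlier results known, these comparisons with all tested genes are a description only. Of 12 tested plasmablast markers 5 were also lower in the knockout, and the rest were not called. The part of that difference in the values given here was not tested.

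**Figure D1:**
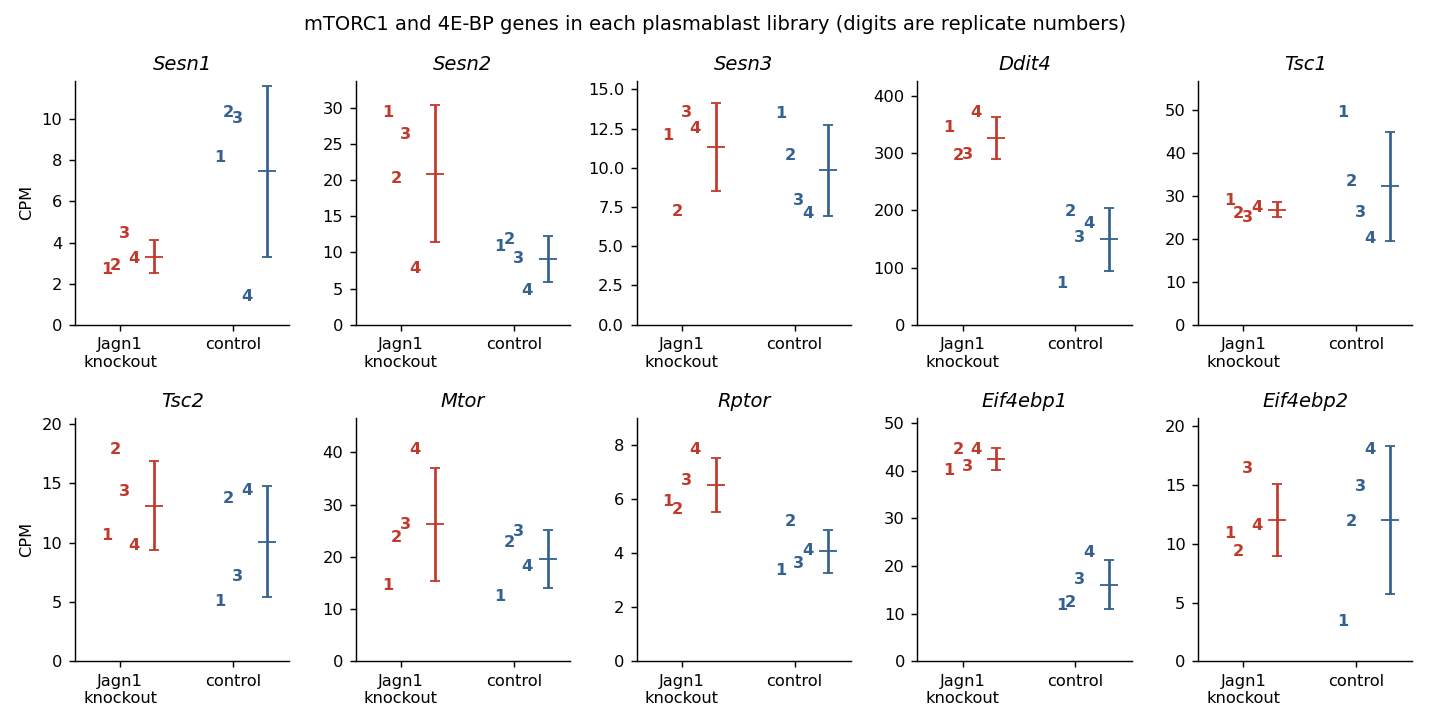
CPM of each of the 10 genes in the 4 Jagn1 knockout libraries (red, left) and the 4 control libraries (blue, right) on a linear axis from 0; digits are replicate numbers, and the cross bar and error bar are the mean and SD of each group. The 2 groups are separate for Ddit4, Eif4ebp1 and Rptor, while knockout replicate 4 lies within the control range for Sesn2 and control replicate 4 lies below the knockout libraries for Sesn1.

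Ddit4, the most abundant of the 10 by tag count, was about 2-fold higher in the knockout. The gene lies on chromosome 10 from 59949669 to 59951834 on the minus strand (GRCm38, GENCODE M21). It stood at 344, 295, 297 and 371 CPM in knockout replicates 1 to 4, against 72.1, 198, 152 and 177 CPM in control replicates 1 to 4. The groups did not overlap, and control replicate 1 was the lowest library by a wide margin. The means were 327 ± 37.1 CPM in the knockout and 150 ± 55.0 CPM in the control (SD, n = 4 each), which gave a log2 fold change of 1.13 ± 0.24 (SE, edgeR adjusted p = 0.00956). Without control replicate 1 the log2 fold change was 0.90 with an adjusted p of 0.000310, and without control replicates 1 and 4 it was 0.90 with an adjusted p of 0.000234.

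RefSeq promoter windows (GRCm38.p6, 250 bases before to 50 after the annotated start) were matched for 9 of the 10 genes, as 10 windows, Sesn1 having 2; Eif4ebp1 was not matched. The windows of Ddit4, Sesn2 and Sesn1 are shown because these genes and Eif4ebp1 had an unadjusted p under 0.05. Capitals mark 3 motifs, each searched on both strands: CCAAT (the CCAAT box, read as ATTGG on the other strand), ACGTG (the core of the hypoxia response element, which is also part of the E-box CACGTG) and TGTTTAC (a FoxO site).
Ddit4, chr10:59951721-59952020, minus strand: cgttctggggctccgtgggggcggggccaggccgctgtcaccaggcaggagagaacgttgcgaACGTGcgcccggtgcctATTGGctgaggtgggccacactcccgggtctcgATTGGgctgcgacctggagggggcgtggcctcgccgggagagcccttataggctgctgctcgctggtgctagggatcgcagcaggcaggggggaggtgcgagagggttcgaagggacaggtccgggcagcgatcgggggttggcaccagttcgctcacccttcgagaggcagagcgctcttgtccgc
Sesn2, chr4:132510407-132510706, minus strand: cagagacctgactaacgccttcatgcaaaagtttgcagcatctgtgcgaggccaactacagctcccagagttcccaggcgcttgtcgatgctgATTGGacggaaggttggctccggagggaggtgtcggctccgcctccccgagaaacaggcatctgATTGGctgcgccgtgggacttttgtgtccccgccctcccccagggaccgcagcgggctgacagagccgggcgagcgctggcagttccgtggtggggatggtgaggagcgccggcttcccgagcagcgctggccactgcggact
Sesn1, upstream window, chr10:41810324-41810623, plus strand: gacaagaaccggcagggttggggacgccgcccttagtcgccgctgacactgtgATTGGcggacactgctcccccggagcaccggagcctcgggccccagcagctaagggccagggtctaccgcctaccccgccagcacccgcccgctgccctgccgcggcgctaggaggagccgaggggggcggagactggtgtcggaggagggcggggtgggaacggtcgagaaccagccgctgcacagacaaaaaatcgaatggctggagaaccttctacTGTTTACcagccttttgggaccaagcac
Sesn1, downstream window, chr10:41887189-41887488, plus strand: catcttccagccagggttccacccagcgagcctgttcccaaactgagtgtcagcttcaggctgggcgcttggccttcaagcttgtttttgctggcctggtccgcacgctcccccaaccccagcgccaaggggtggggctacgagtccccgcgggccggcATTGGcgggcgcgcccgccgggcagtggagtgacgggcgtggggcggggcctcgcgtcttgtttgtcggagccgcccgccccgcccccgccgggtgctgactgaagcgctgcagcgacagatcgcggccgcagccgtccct
The Ddit4 window held 2 CCAAT boxes and 1 ACGTG core, the Sesn2 window held 2 CCAAT boxes, and the upstream Sesn1 window held 1 CCAAT box and 1 TGTTTAC, with TGTTTAC beginning 23 bases after the start. The downstream Sesn1 window held 1 CCAAT box and 0 TGTTTAC. Genes that were not called held such letters too: the Mtor and Sesn3 windows had 4 CCAAT boxes each, and the Eif4ebp2 and Rptor windows 1 ACGTG each. Across all 32851 windows of this length 37.4% held CCAAT, 19.6% held ACGTG and 3.65% held TGTTTAC. TGATGNAA, the composite site bound by ATF4 with C/EBP proteins, was in 3.97% of all windows and in 0 of the 10 windows of these genes, which says only that these letters are absent from these stretches.

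The 3 sestrin genes did not share a pattern. Sesn2 (chromosome 4, 132492032 to 132510501, minus strand), which encodes a leucine-sensing sestrin, stood at 29.3, 20.1, 26.2 and 7.82 CPM in knockout replicates 1 to 4, against 10.8, 11.8, 9.19 and 4.67 CPM in control replicates 1 to 4. Knockout replicates 1 to 3 lay above every control library, and knockout replicate 4 lay within the control range. The log2 fold change was 1.20 ± 0.37 (95% interval 0.41 to 2.00), with an adjusted p of 0.0763 in edgeR, so Sesn2 did not pass. It passed without knockout replicate 4 (log2 fold change 1.48, adjusted p = 0.0170, where 1.96% of all genes were called higher), without control replicate 1 (1.31, adjusted p = 0.0458, where 3.68% were) and with DESeq2 (1.19, adjusted p = 0.0270), but not with limma-voom (1.10, adjusted p = 0.119) or without control replicates 1 and 4 (1.00, adjusted p = 0.157).

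Sesn1 (chromosome 10, 41809935 to 41908424, plus strand), which encodes the sestrin first described as a p53-induced protein, had the lowest counts of the 3. It stood at 2.69, 2.88, 4.46 and 3.25 CPM in knockout replicates 1 to 4, against 8.15, 10.3, 10.0 and 1.36 CPM in control replicates 1 to 4. The knockout libraries lay below control replicates 1 to 3 and above control replicate 4. The log2 fold change was -1.15 ± 0.50 (95% interval -2.22 to -0.09), with an adjusted p of 0.231. Without control replicate 4, which held 14 counts against 58 to 72 in the other control libraries, it was -1.52 with an adjusted p of 0.00872, where 4.79% of all genes were called lower. Without control replicates 1 and 4 it was -1.61 with an adjusted p of 0.00800, where 4.5% were.

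Sesn3 (chromosome 9, 14275067 to 14333101, plus strand), the sestrin gene best known as a FoxO target, stood at 12.1, 7.19, 13.5 and 12.5 CPM in knockout replicates 1 to 4, against 13.5, 10.8, 7.94 and 7.11 CPM in control replicates 1 to 4. The groups overlapped across most of their range. The log2 fold change of 0.21 ± 0.30 had a 95% interval from -0.42 to 0.84 (adjusted p = 0.784), so that a change of up to about 1.79-fold was not resolved.

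The makeup of the sestrin tags within each library, which needs no normalization between libraries, differed for Sesn2 in knockout replicates 1 to 3. Each library held 135 to 337 sestrin counts, and 3′ tags count transcript ends, so the shares were not divided by gene length. Sesn2 made up 66.5% (Wilson 95% interval 61.2 to 71.4), 66.7% (60.0 to 72.7), 59.3% (54.0 to 64.5) and 33.2% (27.0 to 40.0) of sestrin counts in knockout replicates 1 to 4. In control replicates 1 to 4 it made up 33.3% (27.6 to 39.6), 35.8% (29.5 to 42.6), 33.8% (27.6 to 40.7) and 35.6% (28.0 to 43.9). The 4 control libraries and knockout replicate 4 had nearly the same share, and the intervals of knockout replicates 1 to 3 lay above all 5 of theirs. Sesn1 made up 9.88% ± 3.15 of sestrin counts in the knockout and 26.0% ± 11.4 in the control (SD, n = 4 each), with 10.4% in control replicate 4. These shares are a description and were not tested.

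**Figure D2:**
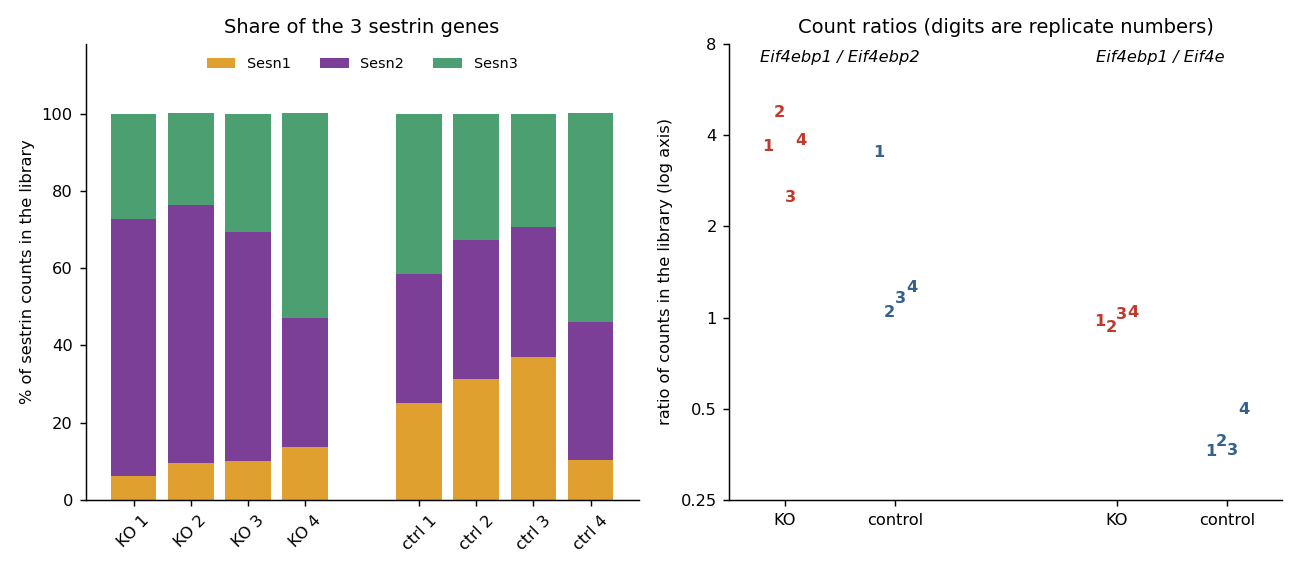
Left, the share of sestrin counts from Sesn1, Sesn2 and Sesn3 in each library, in percent, with knockout (KO) libraries left of control (ctrl) libraries. Right, the ratio of Eif4ebp1 counts to Eif4ebp2 counts and to Eif4e counts in each library on a log axis, digits being replicate numbers; Eif4ebp1 to Eif4e was 0.925 to 1.04 in the knockout and 0.362 to 0.497 in the control.

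Of Eif4ebp1 and Eif4ebp2, Eif4ebp1 was higher in the knockout and the other was not called. Eif4ebp1 (chromosome 8, 27260329 to 27276674, plus strand) encodes 4E-BP1. It stood at 40.0, 44.4, 40.8 and 44.4 CPM in knockout replicates 1 to 4, against 11.8, 12.4, 17.3 and 22.8 CPM in control replicates 1 to 4. The knockout libraries lay close together and far above the control libraries, of which replicate 4 was the highest. The means were 42.4 ± 2.33 CPM in the knockout and 16.1 ± 5.11 CPM in the control (SD, n = 4 each), which gave a log2 fold change of 1.39 ± 0.22 (adjusted p = 0.00120), or 2.62-fold with a 95% interval from 1.89 to 3.64. Leaving out control replicates 1 and 4 gave 1.51 (adjusted p = 4.48e-05).

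Eif4ebp2 (chromosome 10, 61428491 to 61452661, minus strand), which encodes the related protein 4E-BP2, stood at 10.9, 9.35, 16.4 and 11.5 CPM in knockout replicates 1 to 4, against 3.37, 11.9, 14.9 and 18.0 CPM in control replicates 1 to 4. The control libraries enclosed the whole knockout range. The log2 fold change was -0.01 ± 0.38, with a 95% interval from -0.82 to 0.81 (adjusted p = 0.996). Its sign changed under 6 of 18 alternatives, and the widest values were -0.32 and 0.25. Eif4ebp3, a further 4E-BP gene, is outside the 10 and is named after its values were seen. Eif4ebp3 averaged 23.9 ± 1.20 CPM in the knockout and 19.2 ± 5.71 CPM in the control (SD, n = 4 each). It was not called (log2 fold change 0.31 ± 0.23, edgeR adjusted p = 0.539). Its last exon block shares 501 exonic bases with another gene on the same strand, so its counts are uncertain.

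The ratio of Eif4ebp1 to Eif4ebp2 counts was 3.68, 4.75, 2.49 and 3.84 in knockout replicates 1 to 4, against 3.50, 1.04, 1.16 and 1.26 in control replicates 1 to 4. The groups overlapped through control replicate 1, which held only 24 counts of Eif4ebp2. Eif4e, which encodes the cap-binding protein that 4E-BPs sequester and is named after its values were seen, averaged 43.0 ± 3.55 CPM in the knockout and 39.4 ± 8.41 CPM in the control (SD, n = 4 each), with a log2 fold change of 0.12 ± 0.18 (adjusted p = 0.802). The ratio of Eif4ebp1 to Eif4e counts was 0.968, 0.925, 1.02 and 1.04 in knockout replicates 1 to 4, against 0.362, 0.391, 0.364 and 0.497 in control replicates 1 to 4. It was higher in every knockout library than in any control library. Because tags of different genes are not captured equally, such ratios compare libraries and not the amounts of the proteins.

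The genes of the TSC complex and of the mTORC1 core were not called. Tsc1 (chromosome 2, 28641228 to 28691167, plus strand), which encodes the stabilizing subunit hamartin, stood at 29.0, 25.9, 25.1 and 27.3 CPM in knockout replicates 1 to 4, against 49.4, 33.5, 26.2 and 20.1 CPM in control replicates 1 to 4. The knockout libraries lay within the control range, which control replicate 1 widened upward. The log2 fold change was -0.27 ± 0.24 (95% interval -0.78 to 0.25, adjusted p = 0.635), and 0.02 without control replicate 1. Tsc2 (chromosome 17, 24595816 to 24632630, minus strand), which encodes tuberin, the subunit that inactivates Rheb, stood at 10.6, 17.8, 14.3 and 9.74 CPM in knockout replicates 1 to 4, against 5.06, 13.7, 7.10 and 14.4 CPM in control replicates 1 to 4. The groups overlapped, with a log2 fold change of 0.38 ± 0.34 (95% interval -0.35 to 1.10, adjusted p = 0.629). The last exon block of Tsc2 shares 693 exonic bases with Pkd1 on the opposite strand, and whether reads were counted by strand is not stated in the labels or headers, so Tsc2 counts are uncertain.

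Mtor (chromosome 4, 148448611 to 148557683, plus strand), the kinase gene itself, stood at 14.5, 23.7, 26.1 and 40.5 CPM in knockout replicates 1 to 4, against 12.4, 22.7, 24.9 and 18.1 CPM in control replicates 1 to 4. Knockout replicate 4 was the highest library and the other 7 overlapped, with a log2 fold change of 0.43 ± 0.29 (95% interval -0.20 to 1.05, adjusted p = 0.495) that was 0.14 without knockout replicate 4. Rptor (chromosome 11, 119602905 to 119899576, plus strand), which encodes the substrate-binding scaffold Raptor, stood at 5.91, 5.61, 6.69 and 7.82 CPM in knockout replicates 1 to 4, against 3.37, 5.16, 3.62 and 4.09 CPM in control replicates 1 to 4. The groups did not overlap, but with 24 to 65 counts per library the log2 fold change of 0.68 ± 0.33 had a 95% interval from -0.03 to 1.39 and did not pass (adjusted p = 0.296, and 0.261 to 0.520 over 18 alternatives).

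**Figure D3:**
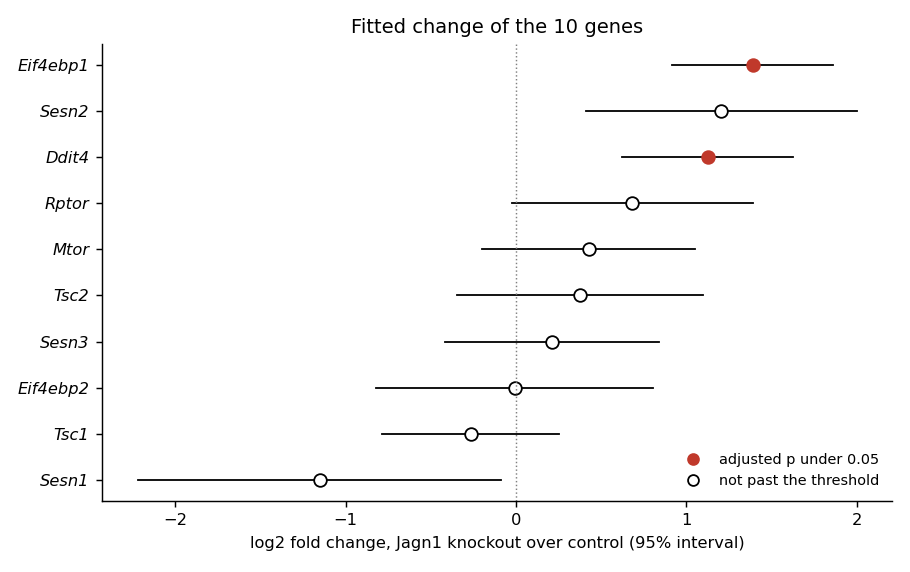
Fitted log2 fold change of each gene, Jagn1 knockout over control, with its 95% interval from edgeR's quasi-likelihood fit; filled points passed an adjusted p of 0.05. Eif4ebp1 (1.39) and Ddit4 (1.13) are filled, Sesn2 (1.20) and Sesn1 (-1.15) have intervals that exclude 0 but did not pass after adjustment, and the other 6 intervals include 0.

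The 5 lists of the wider mTORC1 pathway held 7 calls among 103 tested genes, 4 higher and 3 lower in the knockout, or 6.8%, a share close to the 5.74% called over all tested genes. An unadjusted p under 0.05 was reached by 18% of all tested genes, the share to set beside such counts in these lists. In the amino acid sensing arm, the Rag GTPases with the Ragulator, GATOR, KICSTOR and folliculin complexes that relay amino acid supply to mTORC1, 0 of 26 tested genes were called by edgeR, with a median log2 fold change of -0.03. Unadjusted p-values under 0.05 numbered 2, and DESeq2 called 1 gene lower and limma-voom 2; 2 were lower without control replicate 1. Of these 26, Rnf167, a ubiquitin ligase gene, came nearest, at 83.1 ± 9.59 CPM in the knockout and 119 ± 9.45 CPM in the control (SD, n = 4 each), with a log2 fold change of -0.51 ± 0.15 (adjusted p = 0.0506) that passed under 7 of 18 alternatives, among them those without control replicate 1 or 4. Among the 10 other subunits and assembly factors of the mTOR complexes 0 were called by edgeR, 1 had an unadjusted p under 0.05, DESeq2 called 1 and limma-voom 0. That gene was Prr5l, of mTORC2, with a log2 fold change of 1.40 ± 0.47 (adjusted p = 0.101), which passed without knockout replicate 3 or control replicate 1.

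In the growth factor and energy arm, the PI3K, AKT and AMPK branch that acts on TSC, 1 of 28 tested genes was higher and 3 were lower, with a median log2 fold change of -0.08 (DESeq2 called 2 higher and 4 lower). Trib3, an ATF4 target whose product can bind AKT, was higher, at 263 ± 35.4 CPM in the knockout and 42.0 ± 20.6 CPM in the control (SD, n = 4 each), which gave a log2 fold change of 2.66 ± 0.30 (adjusted p = 0.000121). Phlpp2, which encodes a phosphatase that dephosphorylates AKT, was lower, at 9.81 ± 1.72 CPM in the knockout and 22.3 ± 5.25 CPM in the control (SD, n = 4 each), which gave a log2 fold change of -1.18 ± 0.24 (adjusted p = 0.00793). The other lower genes were the pseudokinase gene Trib1 (-0.64) and Pik3cd (-0.53), the gene of the leukocyte PI3K catalytic subunit. The call of Trib1 was lost without knockout replicate 1 or 2 or control replicate 2 or 3. That of Pik3cd was lost without knockout replicate 1, 2 or 3 or control replicate 2 or 3. Pik3cd also lost its call with the replicate block and in the fit without robust estimation. The count of lower genes was 1 without knockout replicate 1 or 2 or control replicate 2 or 3, and 5 without control replicates 1 and 4.

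Downstream of mTORC1, 2 of 19 tested substrates and effectors were higher and 0 were lower in edgeR, with a median log2 fold change of 0.10; 5 had an unadjusted p under 0.05, DESeq2 called 3 higher and 1 lower, and limma-voom called 4 higher and 0 lower. Eef2k, which encodes the kinase that inhibits elongation factor eEF2 and that mTORC1 signalling restrains, was higher, at 18.0, 11.1, 10.6 and 10.5 CPM in knockout replicates 1 to 4, against 3.51, 3.71, 4.32 and 5.26 CPM in control replicates 1 to 4. The groups did not overlap, with a log2 fold change of 1.57 ± 0.30 (adjusted p = 0.00577). Rps6, a ribosomal protein gene, was the other (0.54 ± 0.13, adjusted p = 0.0248). Its call was lost without knockout replicate 2 or 3 or control replicate 2 or 3, leaving a count of 1. With the replicate block the call of Rps6 was lost too. Among 20 genes of cap-binding initiation 1 was higher and 0 were lower, with a median of 0.07; 3 had an unadjusted p under 0.05, DESeq2 and limma-voom called 2 and 3 higher, neither called any lower, and 3 were higher without control replicate 1. Mknk1, which encodes a kinase that phosphorylates eIF4E, stood at 22.9 ± 2.61 CPM in the knockout and 10.2 ± 0.897 CPM in the control (SD, n = 4 each), which gave a log2 fold change of 1.16 ± 0.21 (adjusted p = 0.00350).

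**Figure D4:**
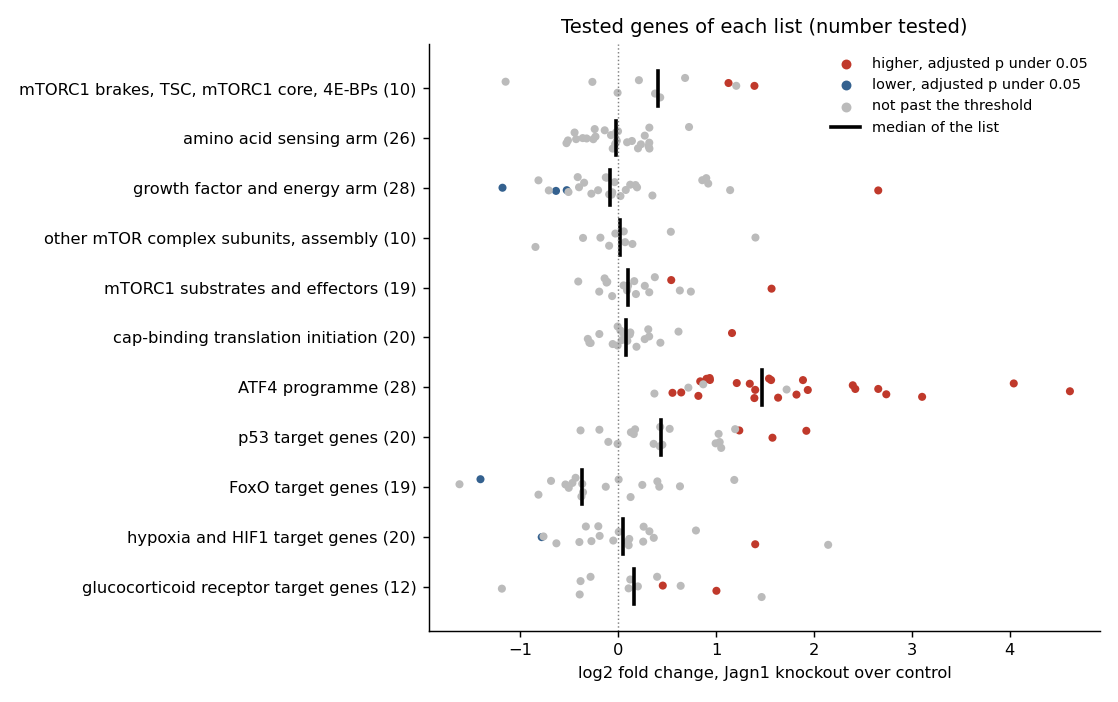
Log2 fold change, Jagn1 knockout over control, of each tested gene in the 10 genes described here and in 10 gene lists; red points were called higher and blue points lower at an adjusted p of 0.05, grey points were not called, and the black bar is the median of the list. The ATF4 programme lies to the right with a median of 1.47, while the 5 lists of the mTORC1 pathway have medians from -0.08 to 0.10.

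Among programmes known to induce the brake genes, calls were most frequent in the ATF4 programme, of which Ddit4, Sesn2 and Eif4ebp1 were kept out. Of its 28 tested genes 24 were higher by edgeR, 26 by DESeq2 and 26 by limma-voom, 0 were lower by any of the 3, 27 had an unadjusted p under 0.05, and the median log2 fold change was 1.47. This list and those of the other programmes were drawn up with earlier results of these data known. They are therefore no independent evidence of direction or of how frequent calls are in a programme. Atf5, a transcription factor gene, stood at 1766 ± 212 CPM in the knockout and 336 ± 121 CPM in the control (SD, n = 4 each), which gave a log2 fold change of 2.40 ± 0.24 (adjusted p = 4.35e-05). The other 3 genes with the smallest p were Chac1 (1.63), which encodes a glutathione-degrading enzyme, Nupr1 (4.04), a stress-induced nuclear protein gene, and the cystine transporter gene Slc7a11 (3.10). Atf4 itself, named after its values were seen, had a log2 fold change of 0.72 ± 0.22 and did not pass (adjusted p = 0.0787), though it passed under 5 of 18 alternatives, among them those without control replicate 1. The mean log2 CPM of the list was 7.24, 7.25, 7.02 and 6.97 in knockout replicates 1 to 4. In control replicates 1 to 4 it was 5.26, 5.80, 5.47 and 5.21. Knockout replicate 4, where Sesn2 was low, had the lowest mean of the knockout libraries, though close to that of replicate 3. In knockout replicate 4 Ddit4 was at its highest (371 CPM), and Eif4ebp1 stood at 44.4 CPM, as in knockout replicate 2. A link of the list to Sesn2 was not tested.

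Of 20 tested p53 target genes 3 were higher and 0 were lower by edgeR, with a median log2 fold change of 0.44. An unadjusted p under 0.05 was reached by 8, against 18% of all tested genes. DESeq2 and limma-voom called 5 and 6 higher, and neither called any lower. Over all tested genes edgeR called 2.54% higher and 3.19% lower, DESeq2 3.73% and 4.91%, and limma-voom 4.85% and 5.96%. Cdkn1a, the cell cycle inhibitor gene, stood at 41.0 ± 5.31 CPM in the knockout and 10.8 ± 1.20 CPM in the control (SD, n = 4 each), and the death-promoting gene Bbc3 and the growth arrest gene Gadd45a had log2 fold changes of 1.24 and 1.57. Of these, Gadd45a lost its call without knockout replicate 3 or control replicate 3. Sesn1, also a p53 target, was kept out of this list. Its log2 fold change was negative, and a link to p53 was not tested.

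Of 19 tested FoxO target genes 0 were higher and 1 was lower by edgeR, against 2.54% and 3.19% of all tested genes. Their median log2 fold change was -0.37. An unadjusted p under 0.05 was reached by 8, against 18% of all tested genes. DESeq2 and limma-voom each called 1 higher, with 2 and 3 lower. The lower gene was Bcl2l11, the gene of the apoptosis inducer BIM, at 99.3 ± 13.9 CPM in the knockout and 264 ± 29.4 CPM in the control (SD, n = 4 each). Without control replicate 4 the counts were 1 higher and 2 lower. This list also holds genes of the FoxO factors themselves, among them Foxo1 and Foxo4. Hypoxia and glucocorticoids also induce Ddit4, and the lists of their target genes include Hif1a and Nr3c1, the genes of the factors themselves. Of 20 hypoxia target genes 1 was higher, the ER oxidase gene Ero1l (1.40), which is also in the ATF4 list, and 1 was lower, Ldha (-0.78), with a median of 0.05. In this list 6 genes had an unadjusted p under 0.05, against 18% of all tested genes. DESeq2 called 2 higher and 1 lower, and limma-voom called 2 in each direction. The count of higher genes was 2 under 7 of 18 alternatives, among them those without control replicate 1 or 4, and 2 were lower without both of these libraries.

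Of 12 glucocorticoid receptor target genes, with a median of 0.16, 6 had an unadjusted p under 0.05, against 18% of all tested genes. DESeq2 called 2 higher and 1 lower, and limma-voom called 4 higher and 0 lower. Where edgeR called 3.19% of all genes lower and 2.54% higher, it called 0 of the 12 lower and 2 higher. These were Klf9 (1.00 ± 0.23, adjusted p = 0.0161), which lost its call without knockout replicate 1 or control replicate 2, and Nfkbia (0.45 ± 0.13, adjusted p = 0.0496), which lost it under 12 of 18 alternatives, among them each single knockout replicate left out and control replicate 2 or 3 left out. The count of higher genes was 0 without knockout replicate 1 or control replicate 2, and 1 without knockout replicate 2, 3 or 4 or control replicate 3; without control replicate 4 it was 3, and 1 gene was lower without control replicate 3 or 4.

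By the measure of likeness used here, the root mean square distance between log2 CPM profiles centred on their means over the 8 libraries, the nearest of 8126 genes to Ddit4 were Unc13d (0.215), a gene of granule exocytosis, Tmem209 (0.222), a nuclear membrane protein gene, and Trim35 (0.234), a ubiquitin ligase gene. The median distance to Ddit4 was 0.794, which the nearest profiles lie below by the way they were picked. Nearest to Eif4ebp1 were Hspe1 (0.200), a mitochondrial chaperonin gene, Xpot (0.211), the tRNA exportin gene, and Plxna1 (0.217), a semaphorin receptor gene, against a median of 0.825. All 6 except Tmem209 (adjusted p = 0.371) were called higher. The profiles hold the difference between the groups, so calls among genes picked for likeness to a called gene are no separate result.

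Markers bear on the cells in which these values were read, and over all tested genes edgeR called 2.54% higher and 3.19% lower. Of 12 tested plasmablast markers 5 were lower and 0 were higher in the knockout by edgeR, DESeq2 or limma-voom, among them Sdc1, which encodes the sorting marker CD138 (log2 fold change -1.07 ± 0.21, adjusted p = 0.00635), and 3 were lower without knockout replicate 2. The summed level of the 13 markers was 21440 to 27430 CPM in the knockout and 27490 to 34670 CPM in the control. Most of that sum was Mzb1, named after its values were seen. Mzb1 averaged 18348.8 ± 3040 CPM in the knockout and 20622.5 ± 1068 CPM in the control (SD, n = 4 each). It was not called (log2 fold change -0.17 ± 0.14, edgeR adjusted p = 0.581). Jchain, also named after its values were seen, averaged 4064 ± 997 CPM in the knockout and 7517 ± 1883 CPM in the control (SD, n = 4 each). It was among the markers called lower (log2 fold change -0.89 ± 0.19, edgeR adjusted p = 0.0122). The summed level of the 14 mature B cell markers was 1066 to 1210 CPM in the knockout and 1054 to 1433 CPM in the control, and Cd79a, from which Mb1-Cre is expressed, was the 1 gene called (-1.04 ± 0.19, adjusted p = 0.00313), with 2 called lower without control replicate 1 or 4. Since Cre is listed for the knockout mice only, an effect of the Cre allele on Cd79a cannot be told apart from a change in the cells. Markers of other cell types differed in level. For 10 macrophage and monocyte markers the sum was 1.48 to 6.47 CPM in the knockout and 3.20 to 11.2 CPM in the control, with Cd14 and Lyz2 at 0 in every library, and the 9 red cell markers found summed to at most 0.262 CPM in the knockout and 0.876 CPM in the control. The 11 T cell markers found summed to 18.2 to 23.2 CPM in the knockout and 23.5 to 32.4 CPM in the control, and the 9 NK cell markers to 0.537 to 2.62 CPM in the knockout and 0.836 to 4.77 CPM in the control, with Ncr1 and Gzma at 0. Of 8 neutrophil markers found 7 were at 0 in every library, S100a8 and S100a9 among them, and Cxcr2 alone gave 105 ± 34.4 CPM in the knockout and 105 ± 26.3 CPM in the control (SD, n = 4 each). The 8 dendritic cell markers summed to 82.1 to 115 CPM in the knockout and 104 to 148 CPM in the control, of which Xcr1, named after its values were seen, gave 71.4 ± 13.3 CPM in the knockout and 81.1 ± 20.5 CPM in the control (SD, n = 4 each). In that list Bst2, which is also an interferon-induced gene, was the 1 called (-0.90), which it was not without knockout replicate 2 or 3.

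**Figure D5:**
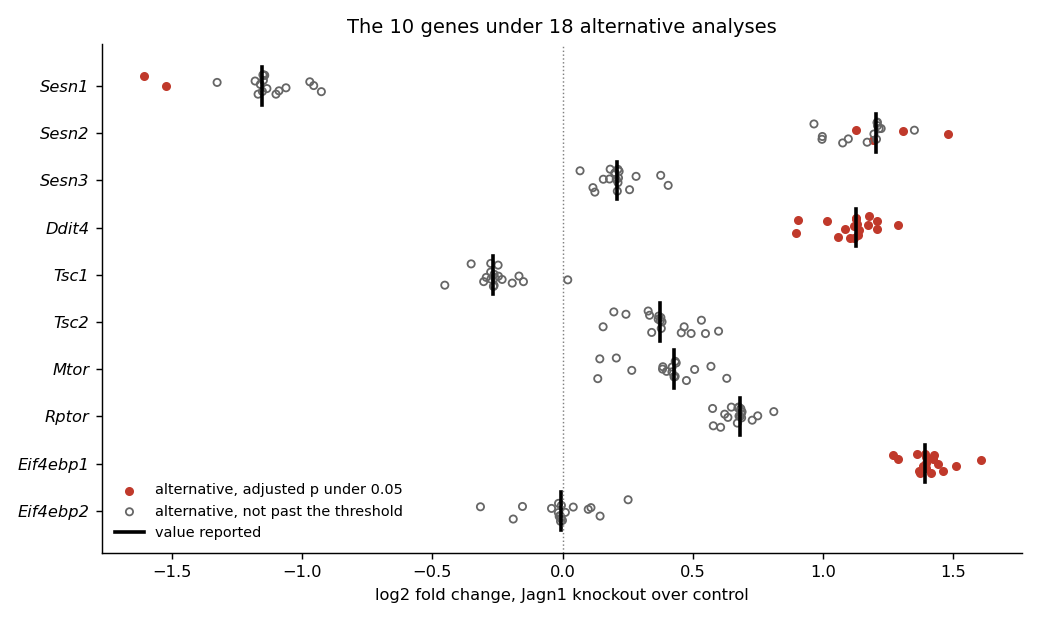
Log2 fold change of each of the 10 genes, Jagn1 knockout over control, under 18 alternative analyses (points) and as reported (black bars); red points passed an adjusted p of 0.05. Ddit4 (0.90 to 1.29) and Eif4ebp1 (1.27 to 1.60) passed under all 18, Sesn2 under 4, Sesn1 under 2 and the other 6 under none.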

How the data were processed

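The deposited files hold raw read counts per gene symbol, 1 library each, not normalized, per the file headers. Per the labels' protocols, 500 ng of total RNA from Trizol extracts of sorted cells was used for QuantSeq 3′ (FWD) libraries, in which 1 read marks 1 transcript end. HTSeq 0.6.1, TopHat2 2.1.1, SAMtools 1.3.1, BWA 0.7.12 and the build mm10 are named by the submitters' processing notes. For their roles, the annotation and any strand setting in counting, no statement was given in the sources used here.

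Genes were filtered with filterByExpr (minimum count 10, minimum total 15) and TMM-normalized. The test was edgeR 4.0.16 (R 4.3.3), quasi-likelihood, robust, two-sided, group as the only term, adjusted over 9904 genes. SE is the log2 fold change over the square root of F. CPM were taken over TMM-scaled totals, with a prior count of 2 on the log2 scale. Library totals overlapped (7673508 ± 452912 in the knockout and 7628210 ± 1754570 in the control, SD, n = 4 each; p = 1, two-sided exact permutation test). Replicates differed beyond sampling noise. The steps were tested on simulated data. Alternatives were DESeq2 1.42.0, limma-voom 3.58.1 with sample weights and robust estimation, other scalings, filters and fits, a replicate block and left-out libraries.

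The 10 genes and all lists were chosen with earlier results of these data known. Named are the 10 genes and Jagn1; from each list up to 4 called genes with the smallest p, or the 1 nearest; and, for each called gene of the 10, the 3 nearest profiles among genes averaging a log2 CPM of 2 or more, predicted genes left out. Exonic overlaps with other genes were found for Eef2k, Mknk1, Prr5l, Cdkn1a, Gadd45a, Atf5, Rnf167, Hspe1, Trim35 and Plxna1 on the opposite strand. Those of Mknk1 and Plxna1 lie in the last exon block, so the counts of these genes are uncertain. The others lie outside that block, and any effect on the counts was not tested.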

Additional observations from a re-analysis of the deposited data

How the results depend on the processing

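The count of 2 genes called higher among the 10 was 2 or 3 under all 18 alternatives, and Ddit4 and Eif4ebp1 passed under each (adjusted p at most 0.0406 and 0.00767). The count called lower was 0, or 0 to 1 on leaving out 1 library, the 1 being Sesn1 without control replicate 4; it was also 1 without control replicates 1 and 4. The genes called among all tested, 568, were 855 with DESeq2, 1070 with limma-voom, 901 without control replicates 1 and 4, and 270 to 892 on leaving out 1 library. Eif4ebp2 changed sign, with a log2 fold change of 0.14 with the replicate block and -0.32 to 0.25 on leaving out 1 library, and the log2 fold change of Tsc1 was -0.45 to 0.0198 on leaving out 1 library, the highest being that without control replicate 1; the cause was not tested. The replicate numbers share no stated source, and same-numbered knockout and control libraries hardly deviated together (r across genes 0.0438, -0.00342, 0.0422 and 0.0662); knockout replicates 2 and 4 correlated best with control replicates 1 and 3 (0.0555 and 0.0687). With the replicate block 509 genes were called, and Sesn2 passed (adjusted p = 0.0226). Depth limits Sesn1 and Rptor most, at 14 to 72 counts per library.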

Other observations

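In none of the 20 sets of 4 libraries checked (10 genes in 2 groups) was 1 library as far from the rest as Dixon's critical value at 95% requires, a distance that chance gives in about 1 of 20 such sets. The ratio of Tsc1 to Tsc2 counts was 1.45 to 2.80 in the knockout and 1.39 to 3.69 in control replicates 2 to 4, with 9.78 in control replicate 1, which had the highest Tsc1 and the lowest Tsc2, Mtor, Rptor, Ddit4, Eif4ebp1 and Eif4ebp2 levels of the 4 control libraries. The summed CPM of Eif4ebp1 and Eif4ebp2 was 50.9 to 57.2 in the knockout and 15.2 to 40.8 in the control, so the groups did not overlap in the sum, although Eif4ebp2 alone overlapped fully.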
